A study of Homo sapiens with 6 samples.

Results

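PTCHD4, a patched-domain membrane protein gene, was described here together with 8 genes of the Hedgehog pathway and the patched family in a human beta cell line. The 9 genes (PTCHD4, PTCHD1, PTCH1, HHIP, SMO, SUFU, GLI1, GLI2 and GLI3) were taken by their symbols from a table of 26485 symbols, and all 9 were present. PTCHD4 was chosen by its fold change between these same groups, so its values are a description with no test. The other 8 were taken as its relatives and pathway partners with earlier results known, and their tests are on the same contrast. Bulk RNA sequencing covered 6 libraries of EndoC-βH1, a line of human pancreatic beta cells that was made with the SV40 large T antigen. In 3 libraries, labelled sgZHX3-3 with the genotype ZHX3 KO, the lentiviral vector lentiCRISPRv2 carried Cas9 and 1 guide against the first coding exon of ZHX3. In the 3 reference libraries, labelled Empty with the genotype WT, the same vector carried no guide. After antibiotic selection both kinds of cells were grown as stable lines. Each group has biological replicates 1 to 3 by its titles, which do not say if they are separately made lines, so every error and p-value given here may measure only the spread between cultures. Total counts lay between 45101454 and 61051884 per library.

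In the Hedgehog pathway a secreted ligand (SHH, IHH or DHH) binds the membrane receptor PTCH1, which otherwise holds the transducer SMO inactive. Once released, SMO acts at the primary cilium to free the GLI transcription factors from SUFU, and GLI1, PTCH1 and HHIP are the classic target genes that report this output. In the embryo the pancreas forms where Sonic hedgehog is kept out of the endoderm, and in rodents Hedgehog signalling has been linked to insulin production by beta cells. PTCHD4, also named PTCH53, has been described in human cells as a target of p53 that dampens Hedgehog signalling.

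ZHX3 itself, the gene the guide was aimed at, was higher and not lower in the libraries labelled sgZHX3-3, at 177 ± 8.62 CPM in sgZHX3-3 and 105 ± 4.19 CPM in Empty (SD, n = 3 each, log2 fold change 0.75, edgeR adjusted p = 1.62e-05). CPM is the count of a gene relative to all counts of its library. The label names a knockout while this RNA was higher, so every direction below is that of the libraries labelled sgZHX3-3 over those labelled Empty. Whether another gene overlaps ZHX3 was not tested, so its counts may include reads from such a gene. Edits at the guide site and ZHX3 protein were not examined here, so whether the knockout label holds was not tested. The labelled cell type could be checked on its markers: all 10 beta cell markers were detected, with INS and CHGA among them, and their summed level was 36545 to 44609 CPM in sgZHX3-3 and 31422 to 39434 CPM in Empty, with 8 of 10 called higher. For this and the lists below, the shares over all tested genes were 7.11% called higher and 4.98% called lower. The 8 endothelial and leukocyte markers summed to 19.1 to 23.0 CPM in sgZHX3-3 and 14.3 to 19.8 CPM in Empty. Most of that sum was CD68, a lysosomal protein gene of macrophages, at 19.6 ± 2.06 CPM in sgZHX3-3 and 15.8 ± 3.02 CPM in Empty (SD, n = 3 each), while the endothelial genes CDH5 and KDR had 0 counts in all libraries and the leukocyte gene PTPRC at most 4 in a library. Of this list 2 genes were tested and 0 were called (1 higher and 0 lower at an unadjusted p below 0.05, and 0 by DESeq2 and by limma-voom). The 8 fibroblast and stellate markers summed to 6.62 to 8.70 CPM in sgZHX3-3 and 6.11 to 6.90 CPM in Empty. The 8 acinar and ductal markers summed to 114 to 121 CPM in sgZHX3-3 and 98.8 to 111 CPM in Empty, without overlap. Of this list 4 genes were tested, with 1 called higher and 0 lower (2 and 0 at an unadjusted p below 0.05). The ductal gene KRT19 was at 52.9 ± 1.87 CPM in sgZHX3-3 and 51.0 ± 3.25 CPM in Empty (edgeR adjusted p = 0.633). SOX9, also ductal, was at 17.4 ± 1.52 CPM in sgZHX3-3 and 15.4 ± 2.26 CPM in Empty (adjusted p = 0.299). Neither was called. The acinar gene CPA1 was called higher, at 43.5 ± 1.56 CPM in sgZHX3-3 and 35.1 ± 3.07 CPM in Empty (SD, n = 3 each, edgeR adjusted p = 0.0145), while PRSS1, CELA3A and AMY2A, which encode other acinar enzymes, had at most 1 count in a library. Stress genes moved with the groups: 10 of 11 targets of the oxidative stress factor NRF2 were called lower (7 by limma-voom), with summed levels of 807 to 938 CPM in sgZHX3-3 and 1195 CPM in Empty 1, 1806 CPM in Empty 2 and 1896 CPM in Empty 3. The 11 heat shock genes summed to 4642 to 5456 CPM in sgZHX3-3 and to 4886, 6357 and 6807 CPM in Empty 1, 2 and 3, with 1 called lower by edgeR, 8 by DESeq2 and 0 by limma-voom. The part of these markers and stress genes in the results below was not tested, and results are also given without Empty 2 and 3.

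The promoters of PTCHD4 and PTCH1 are shown because these genes carry the largest difference and the highest level of the set. PTCH1 is also a classic target gene of the GLI factors. RefSeq promoter windows (GRCh38.p14; 250 bases before to 50 bases after a transcript start) were at hand for 6 of the 9 genes, 13 windows in all. The GLI consensus of 9 letters, GACCACCCA or its reverse complement TGGGTGGTC, was searched on both strands. It was found in 1 of the 13 windows, at 1 of the starts of PTCH1, where it begins 172 bases before the start; of 35116 windows of all genes 0.236% held it. The 250 bases before each start follow, 5′ to 3′ on the gene's strand (minus for both), the PTCH1 window from chr9:95509267-95509516 and the PTCHD4 window from chr6:48068690-48068939. Capitals mark the GLI match, and the PTCHD4 window has none.
PTCH1: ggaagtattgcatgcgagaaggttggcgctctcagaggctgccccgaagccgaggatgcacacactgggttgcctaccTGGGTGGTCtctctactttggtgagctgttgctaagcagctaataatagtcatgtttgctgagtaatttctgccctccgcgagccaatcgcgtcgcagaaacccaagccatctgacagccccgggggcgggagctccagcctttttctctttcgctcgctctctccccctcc
PTCHD4: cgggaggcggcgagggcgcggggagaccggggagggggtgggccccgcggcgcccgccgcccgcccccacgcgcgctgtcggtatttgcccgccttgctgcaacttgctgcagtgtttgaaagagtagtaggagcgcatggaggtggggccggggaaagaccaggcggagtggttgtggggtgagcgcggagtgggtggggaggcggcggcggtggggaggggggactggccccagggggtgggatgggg

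PTCHD4 RNA was more than doubled in every library labelled sgZHX3-3. It stood at 3.71, 3.37 and 3.85 CPM in sgZHX3-3 libraries 1, 2 and 3, against 0.834, 1.23 and 1.16 CPM in Empty 1, 2 and 3. The counts behind these were 166, 168 and 232 in sgZHX3-3 and 39, 73 and 57 in Empty. The lowest sgZHX3-3 library lay far above the highest Empty library, and Empty 1 was the lowest of all. The means were 3.64 ± 0.248 CPM in sgZHX3-3 and 1.08 ± 0.213 CPM in Empty (SD, n = 3 each), and the log2 fold change was 1.75 ± 0.170 (SE). Without Empty 2 and 3, where the stress genes were highest, the log2 fold change was 2.13. Since these are bulk libraries, more cells with PTCHD4 RNA and more of it per cell cannot be told apart. The gene (ENSG00000244694.7; GRCh38 chromosome 6, 47878028 to 48068689, minus strand) spans 190662 bases, 5177 of them exonic.

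**Figure D1:**
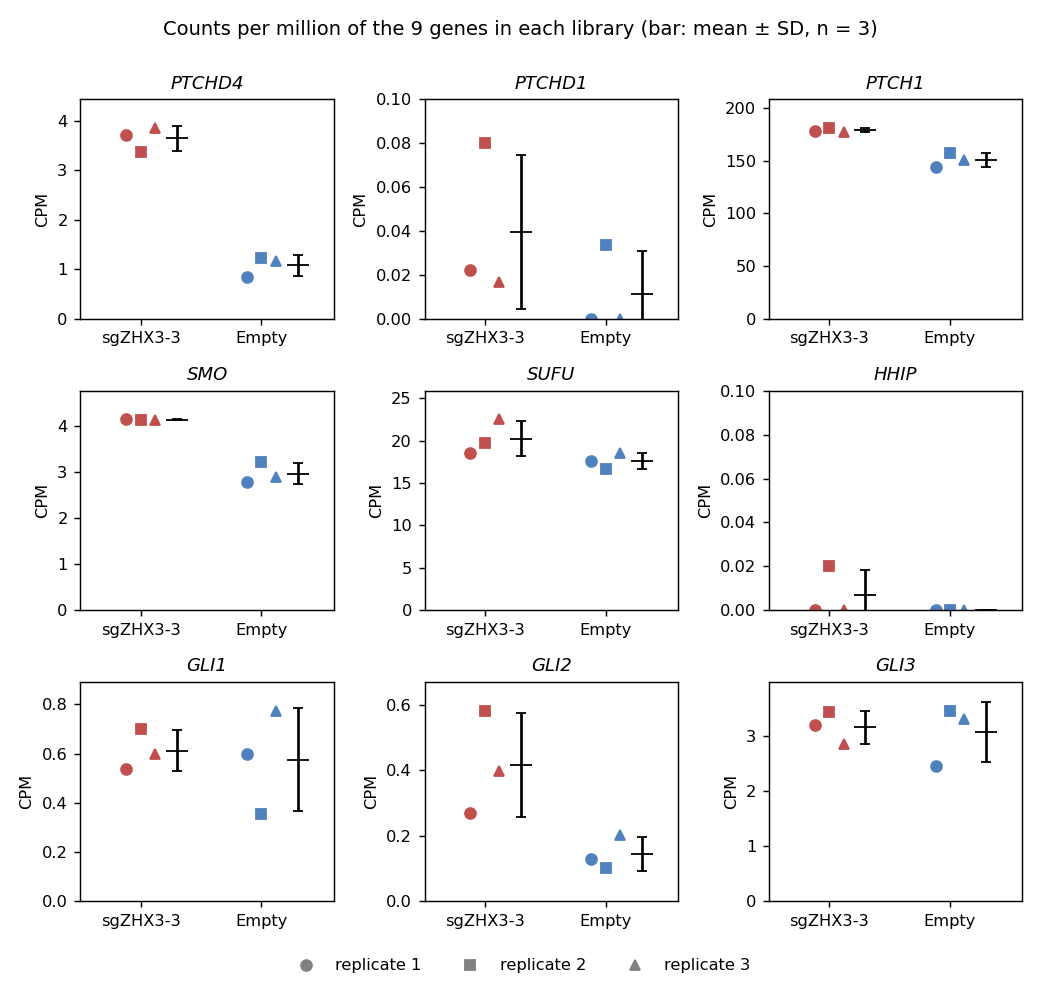
Each panel plots 1 gene in CPM (linear axis from 0) in the 3 sgZHX3-3 libraries (red) and the 3 Empty libraries (blue), with symbols for replicate numbers and a bar for the mean ± SD. The groups are apart for PTCHD4, PTCH1, SMO and GLI2, and overlap for SUFU, GLI1 and GLI3, while PTCHD1 and HHIP are near 0.

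The tested genes around PTCHD4 had log2 fold changes near or below 0. Of 31 protein-coding genes within 2 Mb, 13 were tested, and 0 were called higher (0 at an unadjusted p below 0.05, and 0 by DESeq2 and by limma-voom) and 2 lower. Over all tested genes the shares were 7.11% higher and 4.98% lower, so few calls are due among 13 genes and the count of 0 is no result about the neighbours. Their median log2 fold change was −0.10, with a range of −0.42 to 0.068, against −0.0020 for all tested genes. The closest tested gene, CD2AP, which encodes an actin-linked adaptor of the slit diaphragm, lay 251 kb past the 3′ end at 158 ± 7.23 CPM in sgZHX3-3 and 161 ± 4.96 CPM in Empty (SD, n = 3 each, log2 fold change −0.032). On the 5′ side the closest tested protein-coding gene, MUT, lay 1362 kb away, so the nearer part of that side was not sampled. CENPQ, a centromere protein gene, was lower by the test at −0.42 (edgeR adjusted p = 0.0119). CENPQ was not called without Empty 3 (0.0662) or with the replicate number as a block (0.0570). Its neighbour MUT, the mitochondrial methylmalonyl-CoA mutase, was at −0.16 (adjusted p = 0.0480). It was called when Empty 1 was left out, but not without any of the other libraries (0.0583 to 0.192), nor with RLE size factors (0.0502), with no filter on low counts (0.0576) or with the offset for gene span (0.0849).

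**Figure D2:**
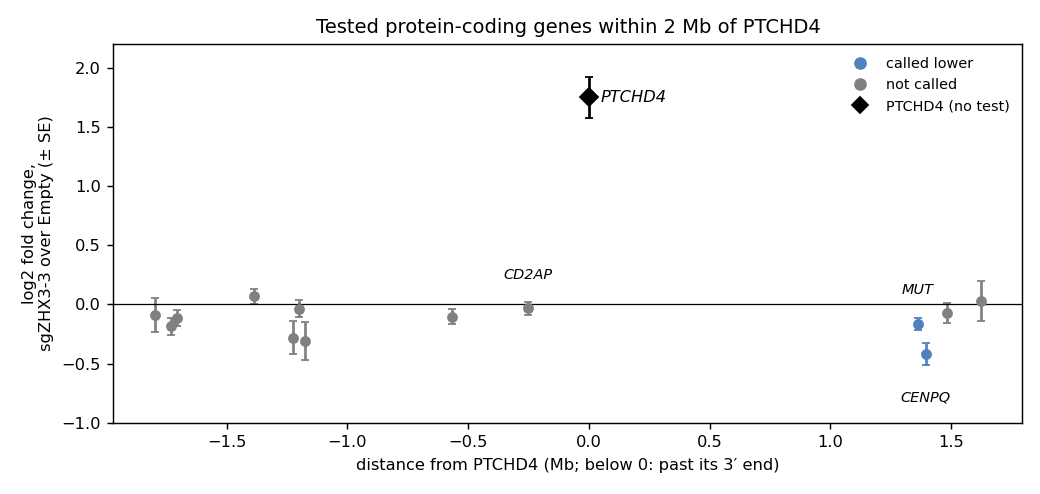
The log2 fold change (± SE, sgZHX3-3 over Empty) of PTCHD4 and of the 13 tested protein-coding genes within 2 Mb is plotted against distance in Mb. PTCHD4 stands at 1.75 while the 13 neighbours lie between −0.42 and 0.068.

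The genes whose profile over the 6 libraries was closest to that of PTCHD4 were ADAMTS7, MMP2, CHRNA3, CHRNA4 and GRM4. Closeness was the root mean square difference of log2 CPM, centred per gene, among 12835 other protein-coding genes of at least 1 CPM. It was 0.23 for ADAMTS7 and 0.30 for MMP2, which encode a cartilage-matrix protease and a gelatinase, and 0.30 and 0.33 for the nicotinic receptor subunits CHRNA3 and CHRNA4. It was 0.33 for GRM4, a metabotropic glutamate receptor. ADAMTS7, the nearest, was at 2.81 ± 0.294 CPM in sgZHX3-3 and 1.04 ± 0.131 CPM in Empty (SD, n = 3 each). With only these libraries, a like profile mostly means a like difference between the groups.

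PTCHD1 (chromosome X, 23334016 to 23404372, plus strand), a relative of PTCHD4 that is tied to autism and intellectual disability, was close to undetected. Its counts were 1, 4 and 1 in sgZHX3-3 and 0, 2 and 0 in Empty, and it did not pass the filter on low counts. An exact two-sided permutation test over the libraries gave p = 0.3, where the smallest p possible is 0.1. At these depths 3 counts, the floor used here, equal 0.0498 to 0.0671 CPM per library, so a difference in PTCHD1 was not detectable.

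PTCH1, the Hedgehog receptor (chromosome 9, 95442980 to 95517057, minus strand), was by far the most abundant of the 9 RNAs and rose modestly. It stood at 178, 181 and 177 CPM in sgZHX3-3 libraries 1, 2 and 3, against 144, 157 and 150 CPM in Empty 1, 2 and 3. Each sgZHX3-3 library lay above each Empty library, and the sgZHX3-3 libraries were tightly grouped. The means were 179 ± 1.92 CPM in sgZHX3-3 and 151 ± 6.42 CPM in Empty (SD, n = 3 each), and the log2 fold change was 0.25 ± 0.0517 (SE, edgeR adjusted p = 0.00934). The call was lost without Empty 3 (adjusted p = 0.0515), without sgZHX3-3 library 2 (0.0670) and without Empty 2 and 3 together (0.31, adjusted p = 0.0649). Of the 6 tested genes of the set other than PTCHD4, 3 were called higher (PTCH1, SMO and GLI2) and 0 lower (0 at an unadjusted p below 0.05, and 0 by DESeq2 and by limma-voom). Of all 16199 tested genes, 7.11% were called higher and 4.98% lower. The groups did not overlap, with sgZHX3-3 higher, for these same 3 genes of the 6, against 16.0% of all tested genes. GLI2 passed the filter on low counts only through the sgZHX3-3 libraries, which limits both counts. The median log2 fold change of the 6 was 0.23.

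HHIP (chromosome 4, 144646021 to 144745271, plus strand), a membrane protein that traps Hedgehog ligands and a standard target of GLI, had 1 count in sgZHX3-3 library 2 and 0 in every other library. Counts of 0 in Empty allow up to 0.0641 CPM in the shallowest Empty library, for counting error only. Of the ligands, SHH was as scarce, while DHH and IHH had more counts. SHH had 1, 1 and 0 counts in sgZHX3-3 and 1, 0 and 0 in Empty. DHH had 4, 3 and 8 counts in sgZHX3-3 and 2, 2 and 0 in Empty. IHH had 5, 11 and 26 counts in sgZHX3-3 and 14, 22 and 10 in Empty. SHH, DHH and IHH were singled out after their values were seen. Of 9 genes for ligands and their release, 5 were tested and none was called in either direction (0 at an unadjusted p below 0.05, and 0 by DESeq2 and by limma-voom), with a median log2 fold change of −0.025. With 7.11% of all tested genes higher and 4.98% lower, the count of 0 is no result about this list. IHH was at −0.14 (edgeR adjusted p = 0.871). The transporters that export Hedgehog ligands from producing cells, DISP1 and DISP2, were detected well and lay at −0.028 and −0.025 (adjusted p = 0.861 and 0.858), where DISP2 was at 0.0019 with the offset for gene span.

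Among the other receptors and coreceptors LRP2 was called higher, and the others did not pass. Of 8 listed genes 6 were tested, with 2 higher (PTCH1 and LRP2) and 0 lower (0 at an unadjusted p below 0.05, and 0 by DESeq2 and by limma-voom), and the list median was 0.19. The shares over all tested genes were 7.11% higher and 4.98% lower. LRP2 (megalin), an endocytic receptor that takes up Sonic hedgehog, had 39, 34 and 52 counts in sgZHX3-3 and 27, 16 and 13 in Empty, at 1.14 (edgeR adjusted p = 0.0359). It was called without Empty 1, but not without any of the other libraries (0.0730 to 0.160) or with the offset for gene span (0.0572), and without Empty 2 and 3 its value was 0.48 (adjusted p = 0.604). CDON, a coreceptor that binds ligand together with PTCH1, was at 0.13 (adjusted p = 0.257).

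SMO, the transducer that PTCH1 restrains (chromosome 7, 129188872 to 129213545, plus strand), was also higher. It stood at 4.14, 4.13 and 4.13 CPM in sgZHX3-3 libraries 1, 2 and 3, against 2.78, 3.21 and 2.89 CPM in Empty 1, 2 and 3. The groups did not overlap, and the sgZHX3-3 libraries were nearly equal. The means were 4.13 ± 0.00441 CPM in sgZHX3-3 and 2.96 ± 0.224 CPM in Empty (SD, n = 3 each), and the log2 fold change was 0.48 ± 0.123 (SE, edgeR adjusted p = 0.0255). The spread within sgZHX3-3 was smaller than counting error alone would give for 185 to 249 counts. The call held without Empty 1 (0.0324) and was lost without any other single library, with adjusted p from 0.0529 to 0.104, while the log2 fold change stayed between 0.44 and 0.54. Without Empty 2 and 3 together it was 0.57 (adjusted p = 0.158).

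The list of SMO and genes that work with it had calls in both directions. Of 13 listed genes, SMO included, 12 were tested, 3 were higher (SMO and GPR161 among them) and 3 lower (EVC, EFCAB7 and C16orf52), with a median of 0.12. Of the lower ones, EVC passed the filter on low counts only through the Empty libraries. The shares over all tested genes were 7.11% higher and 4.98% lower. MGRN1, a ubiquitin ligase that marks SMO for removal, did not pass (0.13, edgeR adjusted p = 0.185). C16orf52, now named MOSMO, which lowers SMO at the cell surface, was at −0.25 (adjusted p = 0.0402). It passed without Empty 1, but not without any of the other libraries (0.0610 to 0.156). GPR161, a ciliary receptor that restrains the pathway through protein kinase A, was at 0.29 (adjusted p = 0.0392), and did not pass without Empty 2 or 3 or sgZHX3-3 library 2 or 3 (0.105 to 0.146) or with library totals only (0.0610).

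EVC and EFCAB7 belong to the complex at the base of the cilium that passes the signal on from SMO. EVC had 6, 2 and 5 counts in sgZHX3-3 and 10, 23 and 24 in Empty, at −2.09 (edgeR adjusted p = 0.0178). EVC passed the filter on low counts only through the Empty libraries, where it was higher, so this p-value is no independent support. It did not pass without Empty 2 or 3 or sgZHX3-3 library 2 or 3 (0.0667 to 0.0932), and without Empty 2 and 3 together it was at −1.32 (0.503). EFCAB7, which anchors that complex, was at 10.8 ± 0.991 CPM in sgZHX3-3 and 14.3 ± 0.443 CPM in Empty (SD, n = 3 each), at −0.41 (adjusted p = 0.0113). That call did not hold without Empty 3 (0.0633) or with the replicate number as a block (0.0559). ADRBK1, now named GRK2, a kinase that phosphorylates active SMO, was at 0.19 and did not pass (adjusted p = 0.0617); it passed without Empty 1 (0.00355), with DESeq2 (0.0404) and with the offset for gene span (0.0359).

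SUFU, the cytoplasmic inhibitor that binds GLI proteins (chromosome 10, 102503987 to 102633535, plus strand), did not pass the test. It stood at 18.5, 19.7 and 22.5 CPM in sgZHX3-3 libraries 1, 2 and 3, against 17.6, 16.6 and 18.6 CPM in Empty 1, 2 and 3. Empty 3 lay just above sgZHX3-3 library 1, so the groups overlapped. The log2 fold change was 0.20 ± 0.0853 (SE, edgeR adjusted p = 0.137).

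Of the 3 GLI factors, GLI2 was called higher at very low counts, and GLI1 and GLI3 did not pass. GLI2 (chromosome 2, 120735623 to 120992653, plus strand), the main activator at the end of the pathway, had 12, 29 and 24 counts in sgZHX3-3 libraries 1, 2 and 3, against 6, 6 and 10 in Empty 1, 2 and 3. The lowest sgZHX3-3 library was still above the highest Empty library, at 0.268 CPM in sgZHX3-3 and 0.204 CPM in Empty. The log2 fold change was 1.54 ± 0.425 (SE, edgeR adjusted p = 0.0336), and an exact two-sided permutation test over the libraries gave p = 0.1, the smallest possible. GLI2 passed the filter on low counts only through the sgZHX3-3 libraries, where it was high, so these p-values are no independent support. The call was lost without Empty 2 (1.32, adjusted p = 0.146), Empty 3 (1.86, 0.0624), sgZHX3-3 library 2 (1.24, 0.157) or sgZHX3-3 library 3 (1.58, 0.0808), and DESeq2 gave no adjusted p at this level.

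GLI1 (chromosome 12, 57460135 to 57472262, plus strand), which is itself a GLI target and the usual reporter of pathway activity, had 24, 35 and 36 counts in sgZHX3-3 and 28, 21 and 38 in Empty. The groups overlapped throughout, with a log2 fold change of 0.11 ± 0.306 (SE, edgeR adjusted p = 0.851), and the sign changed without Empty 2 (−0.16). The gene overlaps ARHGAP9 on the opposite strand, and no source used here says whether counting used strand, so reads of the pair may not be told apart. Annotated genes on the opposite strand also overlap PTCH1, SMO, SUFU, GLI2, GLI3 and HHIP, so the same limit holds for them. GLI3 (chromosome 7, 41960950 to 42237870, minus strand), which acts mainly as a repressor when ligand is absent, was at 3.20, 3.45 and 2.85 CPM in sgZHX3-3 and 2.46, 3.46 and 3.32 CPM in Empty. Its log2 fold change was 0.031 ± 0.155 (SE, adjusted p = 0.922), and its sign differed between scalings, at −0.0059 with library totals only and −0.073 with the offset for gene span. Of the 19 listed GLI factors and regulators 18 were tested, with GLI2 higher and 0 lower (1 at an unadjusted p below 0.05, 1 by DESeq2 and 0 by limma-voom) and a median of −0.036. The shares over all tested genes were 7.11% higher and 4.98% lower, so few calls are due among 18 genes. The kinases CSNK1A1 and CSNK1D, which phosphorylate components of the pathway, were at −0.067 and 0.025, where CSNK1D was at −0.011 with library totals only.

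**Figure D3:**
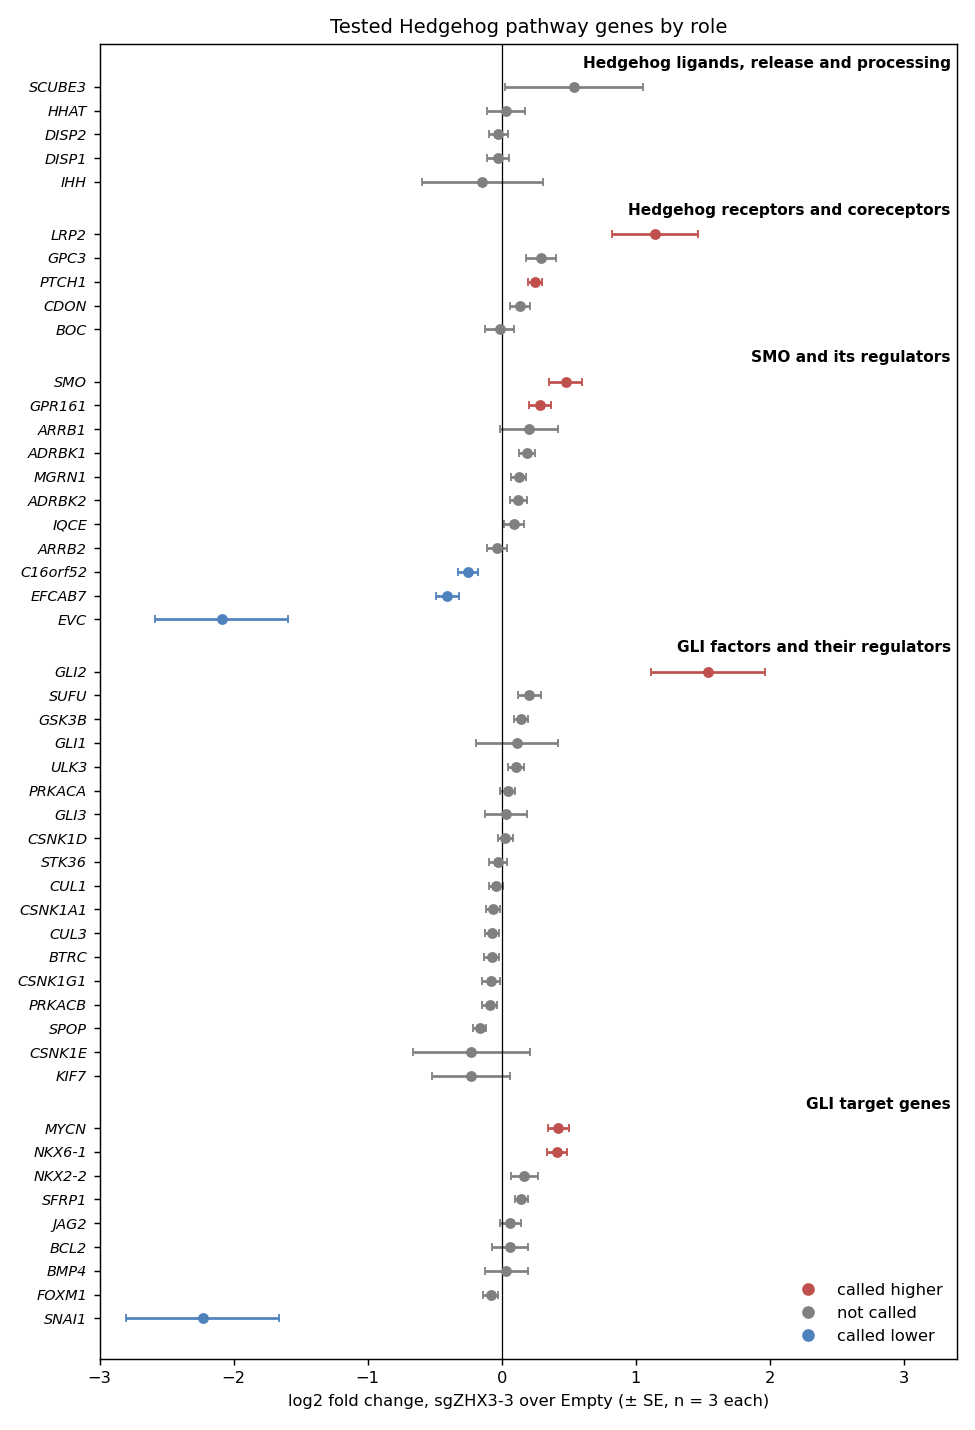
Points give the log2 fold change of sgZHX3-3 over Empty (± SE, n = 3 each) for 48 of the 50 tested genes of the 5 Hedgehog lists, each gene once under the first list that holds it. Red marks the 7 plotted genes called higher, blue the 4 called lower and grey the 37 not called.

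The listed GLI target genes that were called went both ways. Of 19 listed targets 12 were tested, with 3 higher (PTCH1, MYCN and NKX6-1) and 1 lower (SNAI1), and a median of 0.087, where 7.11% of all tested genes were called higher and 4.98% lower. FOXF2, FOXL1 and HSD11B1 had 0 counts in every library. MYCN, a growth-promoting factor induced by Hedgehog in cerebellar progenitors, was at 19.1 ± 1.16 CPM in sgZHX3-3 and 14.2 ± 0.766 CPM in Empty (SD, n = 3 each), at 0.42 (edgeR adjusted p = 0.00481). NKX6-1, a GLI-responsive gene of the ventral neural tube that is also a core beta cell factor, was at 0.41 (adjusted p = 0.00390). MYCN and NKX6-1 kept their call without any 1 library, and lost it without Empty 2 and 3 together (0.34, adjusted p = 0.190, and 0.23, adjusted p = 0.194). SNAI1, a repressor that drives loss of epithelial features, had 17, 9 and 6 counts in sgZHX3-3 and 18, 53 and 83 in Empty, at −2.23 (adjusted p = 0.0308). SNAI1 passed the filter on low counts through the Empty libraries, where it was higher, so this p-value is no independent support. Its level in Empty 1 was close to sgZHX3-3 library 1, it did not pass without Empty 2 or 3 or sgZHX3-3 library 2 or 3 (0.0728 to 0.128), with no filter on low counts (0.0627) or with limma-voom (0.0506), and without Empty 2 and 3 together it was at −0.86 (0.613). NKX2-2 and SFRP1 did not pass (0.17, adjusted p = 0.305, and 0.15, adjusted p = 0.0799). Both passed without Empty 1 (0.00715 and 0.0272), and SFRP1 with the offset for gene span (0.0417).

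Over all 5 Hedgehog lists, 64 genes with the 7 members they hold, 50 were tested, 8 were higher and 4 lower, with a median log2 fold change of 0.039, against 7.11% higher and 4.98% lower of all tested genes. Without those members 5 of 44 tested genes were higher and 4 lower. Among the called genes, GLI2 passed the filter on low counts through the sgZHX3-3 libraries, and EVC and SNAI1 through the Empty libraries. These counts moved with single libraries, to 2 higher and 0 lower without Empty 3, and to 3 higher and 1 lower without Empty 2 or without sgZHX3-3 library 2. They were 4 higher and 1 lower without sgZHX3-3 library 3. With Empty 2 and 3 both left out, 0 were called in either direction, where the lone Empty library is assumed to vary like the others.

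Levels of different genes can be set side by side only per length of transcript, here as CPM per kb of exon averaged over the 6 libraries. On that scale the order was PTCH1 (9.92), SUFU (2.75), SMO (0.823), PTCHD4 (0.456), GLI3 (0.285), GLI1 (0.141), GLI2 (0.0382), PTCHD1 (0.0019) and HHIP (0.00028). PTCH1 lay above 67.5% of 15612 tested genes with a known length, and GLI1 above 5.80% of them. The ranges over libraries did not overlap between neighbours in this order, except for SMO with PTCHD4, PTCHD4 with GLI3, and PTCHD1 with HHIP. The place of PTCHD4 depended on the group: it was at 0.704 ± 0.0480 CPM per kb in sgZHX3-3, where GLI3 was at 0.289 ± 0.0272, and at 0.208 ± 0.0412 CPM per kb in Empty, where GLI3 was at 0.281 ± 0.0497 (SD, n = 3 each). With the length of the longest transcript in place of all exons, all 9 kept their rank.

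**Figure D4:**
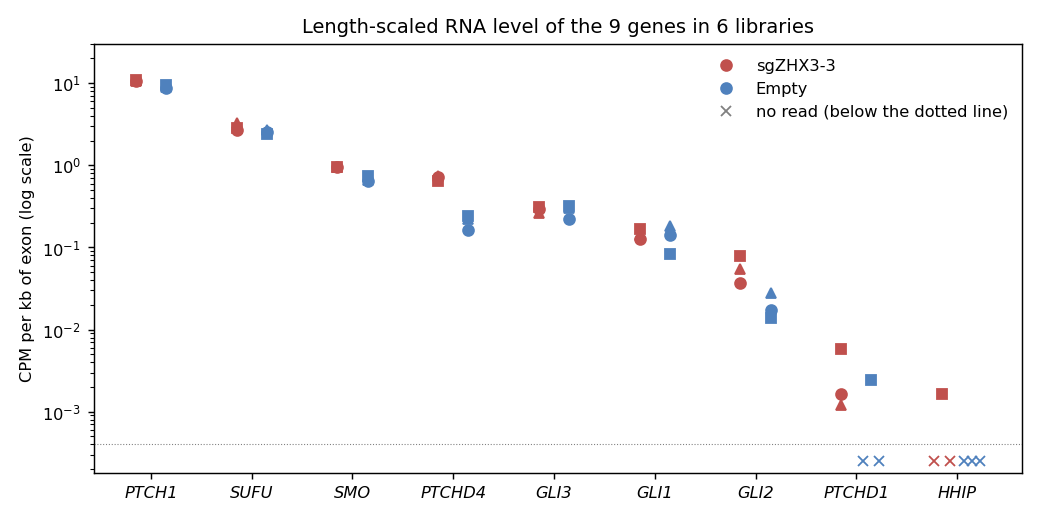
The level of each gene in CPM per kb of exon (log axis) is plotted for the sgZHX3-3 (red) and Empty (blue) libraries, with genes in order of their mean and crosses below the dotted line for libraries without a read. PTCH1 leads at 9.92 on average and SUFU is next at 2.75, while PTCHD4 lies above GLI3 in sgZHX3-3 and near it in Empty.

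The wider family of patched-like and sterol-sensing proteins has 13 listed genes, of which 11 were tested. Leaving aside PTCHD4, which was chosen by this contrast, 4 of 10 tested genes were higher (PTCH1, NPC1 and DHCR7 among them), against 7.11% of all tested genes, and 0 lower (0 at an unadjusted p below 0.05, and 0 by DESeq2 and by limma-voom). The median log2 fold change of the 10 was 0.16. DHCR7, which makes cholesterol from its last precursor, was at 76.8 ± 4.93 CPM in sgZHX3-3 and 54.9 ± 2.60 CPM in Empty (SD, n = 3 each), at 0.49 (edgeR adjusted p = 0.000516). It kept its call without any 1 library, and lost it without Empty 2 and 3 together (0.41, adjusted p = 0.0642). NPC1, the lysosomal cholesterol exporter, was at 0.19 (adjusted p = 0.0356), and did not pass without Empty 2 or 3 or sgZHX3-3 library 1 or 2 (0.0739 to 0.179) or with library totals only (0.0739). SCAP, which senses sterols for the SREBP factors, did not pass (0.13, adjusted p = 0.218) but passed without Empty 1 (0.0487). With PTCHD4 counted, 5 of this list were higher in all libraries, 3 without Empty 3 or without sgZHX3-3 library 2, and 2 without Empty 2 and 3 together.

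The other listed p53 targets were mostly not called. Of 28 listed genes 27 were tested, 0 were higher (2 at an unadjusted p below 0.05, and 0 by DESeq2 and by limma-voom) and 3 lower. At an unadjusted p below 0.05, 8 were lower, against 5 by DESeq2 and 3 by limma-voom. The median was −0.11. Of all tested genes 7.11% were higher and 4.98% lower, so the count of 0 higher is no result about the list. Activity of p53 was not measured in this line, which was made with the SV40 large T antigen. The part of that antigen in these values was not tested. CDKN1A, the cell cycle inhibitor that is the classic p53 target, was at 52.3 ± 1.86 CPM in sgZHX3-3 and 59.2 ± 5.85 CPM in Empty (SD, n = 3 each), at −0.18 (edgeR adjusted p = 0.123), and passed as lower without Empty 1 (0.0229). MDM2, the ubiquitin ligase that degrades p53, was at −0.20 (adjusted p = 0.0329), the ribonucleotide reductase subunit RRM2B at −0.24 (0.0286) and the nuclease AEN at −0.21 (0.0268). Each of them lost its call without Empty 2, without Empty 3 and without sgZHX3-3 library 2, with adjusted p from 0.0529 to 0.156, and 0 were lower in those settings. The count of lower genes was 6 without Empty 1 and 1 without sgZHX3-3 library 3, and 1 gene was higher in each of these.

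The fold changes of PTCHD4, PTCH1, SMO and GLI2 kept their direction under each alternative tried, while the calls of PTCH1, SMO and GLI2 changed with which libraries entered, and those of SMO and GLI2 also with the replicate number as a block and at an adjusted p below 0.01.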

How the data were processed

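RNA was counted in 6 EndoC-βH1 libraries, prepared with a directional NEBNext Ultra kit per the labels' protocols. The submitters' processing notes name STAR, featureCounts and hg38, without versions. The annotation and the strand setting are not stated in any source used here. The authors deposited unnormalised gene counts under gene symbols, per the file headers, and each column was joined to its sample by group and replicate letter.

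Genes were kept by filterByExpr (minimum count 10, minimum total 15), which left 16199 genes with 7 of the 9 members, and were scaled by TMM. Groups were compared with edgeR 4.0.16 (robust quasi-likelihood test, Benjamini-Hochberg adjustment over all tested genes, called at 0.05) in R 4.3.3. Standard errors were derived from log2 fold changes and F statistics. CPM used library sizes scaled by TMM. Coordinates and lengths come from GENCODE 29 (GRCh38), which held 93.0% of symbols, with older symbols matched through RefSeq. The members and lists were chosen with earlier results of these data known. Named were the members, ZHX3, called genes of the Hedgehog and patched lists with up to 4 uncalled ones per list by highest CPM (at most 2 were used), tested neighbours within 2 Mb, the 5 genes with the closest profile, up to 5 called p53 targets, CDKN1A, MDM2 and defining markers. Some genes that meet this rule count in their lists but are not reported here. IHH, SHH, DHH and the GLI targets at 0 counts were chosen after their values were seen. The procedure was also run on simulated counts, where it recovered 52% of genes changed 1.25-fold and 92% of those changed 2-fold. Of 162 calls there, 6 were false. The simulated libraries varied independently, so a shared difference such as that of Empty 1 from Empty 2 and 3 was not covered. Alternatives included DESeq2 1.42.0, limma-voom (limma 3.58.1), other scalings and filters, and left-out libraries. Floors cover counting error only.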

Additional observations from a re-analysis of the deposited data

How the results depend on the processing

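PTCHD4 lay between 1.61 and 1.87 (log2 fold change) with any 1 library left out, ZHX3 between 0.72 and 0.78, PTCH1 between 0.22 and 0.28, SMO between 0.44 and 0.54, SUFU between 0.12 and 0.26, GLI2 between 1.24 and 1.86, GLI1 between −0.16 and 0.39, and GLI3 between −0.10 and 0.13. Without Empty 2 and 3 together PTCHD4 was at 2.13, and PTCH1 (0.31), SMO (0.57) and GLI2 (1.69) did not pass. At an adjusted p below 0.01, SMO (0.48) and GLI2 (1.54) did not pass. The cause of each of these changes was not tested beyond the smaller number of libraries or the stricter limit.

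Replicate numbers did not pair the libraries: deviations from the group means correlated at −0.14, 0.07 and −0.14 for numbers 1, 2 and 3. For unlike numbers the correlations lay between −0.15 and 0.23, the highest for sgZHX3-3 library 3 with Empty 1. A block on the replicate number may therefore miss what libraries share, and the calls lost with it are given only as a description. With the replicate number as a block SMO (0.48, adjusted p = 0.0779) and GLI2 (1.53, 0.0812) did not pass, 516 genes were higher and 239 lower, and the counts were 3 higher and 0 lower in the Hedgehog lists and 0 lower among p53 targets. In that fit EFCAB7, CENPQ, EVC, LRP2, SNAI1, GPR161, C16orf52, NPC1, MUT, MDM2, RRM2B and AEN also lost their call (edgeR adjusted p from 0.0559 to 0.127).

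Of all genes 1151 were higher and 807 lower. These counts lay between 474 and 1792 and between 184 and 1499 with any 1 library left out, at 209 and 40 without Empty 2 and 3 together, and at 467 and 194 at an adjusted p below 0.01; 1272 were lower with library totals only. The Hedgehog lists had 2 to 12 higher and 0 to 4 lower with any 1 library left out, 0 and 0 without Empty 2 and 3, and 3 and 0 at an adjusted p below 0.01. The patched and sterol-sensing list had 3 to 6 higher with any 1 library left out, and 2 without Empty 2 and 3. The p53 list had 0 to 1 higher and 0 to 6 lower with any 1 library left out, 1 higher with the offset for gene span, 5 lower with DESeq2, and 0 lower without Empty 2 and 3 and at an adjusted p below 0.01.

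Signs changed for values near 0. GLI3 was at −0.0059 with library totals only, −0.073 with the span offset, −0.10 without Empty 1 and −0.034 without sgZHX3-3 library 2. GLI1 was at −0.16 without Empty 2. With library totals only CSNK1D was at −0.011, and with the span offset DISP2 was at 0.0019. Without Empty 2 and 3 together CSNK1D was at −0.021, DISP1 at 0.13 and NKX2-2 at −0.066. With any 1 library left out CSNK1D lay between −0.018 and 0.059 (−0.0076 without Empty 2), DISP1 between −0.095 and 0.038, DISP2 between −0.077 and 0.030, IHH between −0.80 and 0.17 (0.088 without Empty 2), and CD2AP between −0.057 and 0.0048. Depth limits PTCHD1, HHIP and SHH, whose counts are near 0, and leaves IHH, GLI1, GLI2, EVC and LRP2 with wide errors.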
